A study of Mus musculus with 4 samples.

Results

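Homing and chemoattractant receptors were described in 3 libraries of mouse T-helper 2 (Th2) cells. The members were 8 named genes of the 50600 genes counted, chosen by symbol. They were the Th2-type receptors Ccr4, Ccr8 and Ptgdr2, the other helper-type receptors Cxcr3 and Ccr6, and the lymph-node homing receptors Ccr7 and S1pr1. Ccdc86, which lies opposite Ptgdr2, was the last.

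The series holds 4 libraries of RNA from primary Th2 cells of mouse strain C57BL/6NJ, all in 1 group with no other cell type, treatment or genotype to set them against. By the labels the replicates are separate biosamples that share 1 donor, age is unknown, and a protocol for differentiating CD4 T cells was followed. A time of 72 h stands in the headers of the count files without further explanation. Nothing in the labels says that the replicates came from separate animals or cultures, so p-values measure only how far these samples spread, and that spread may be technical.

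T cells find their place in the body by reading gradients of chemokines and lipids with receptors that span the membrane and signal through inhibitory G proteins. Naive T cells carry CCR7, which brings them into lymph nodes, and S1PR1, which lets them leave again along sphingosine 1-phosphate. On activation they change this set. Th2 cells gain CCR4 and CCR8, which respond to chemokines of skin and allergic tissue, and PTGDR2, also called CRTH2, which responds to prostaglandin D2 from mast cells. CXCR3 is the receptor typical of Th1 cells and CCR6 that of Th17 cells.

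The counts were assigned to a gene's annotated strand by strand setting 1 of the counter, per the file headers. Replicates 1, 3 and 4 had 2388255, 1929880 and 1713199 gene counts, and replicate 2 had 5016. The 8 genes held 289, 145 and 221 counts in replicates 1, 3 and 4 and none in replicate 2. At their mean level they would together have given 0.505 counts in replicate 2, where the floor of 3 counts stood at 159 to 784 TPM (transcript abundance scaled by exonic length and library size) for these genes. Replicate 2 thus says nothing about them, and all values below are from replicates 1, 3 and 4. In these, 90.7%, 94.2% and 91.3% of the counts fell on genes with at least 1 exonic base opposite an exon of another gene. Such genes made up 16.2% of all genes. Ptgdr2 and Ccdc86 belong to them. The other 6 members have neither an exon nor any part of a gene span opposite them. Fragments assigned to the other strand of these 6 loci were not counted. The labels do not give the strand that the kit keeps, and whether setting 1 fits it was not tested. If it does not, a gene's count is that of the opposite strand. The levels, their order and the class sums below would then not describe the receptors' own RNA, and the fragments counted for Ptgdr2 and for Ccdc86 would come from the other gene's strand.

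Ccr4 and Ccr8 lie on mouse chromosome 9 (mm10), Ccr4 at 114490316 to 114504916 on the minus strand and Ccr8 at 120092114 to 120094906 on the plus strand. Both were lowest in replicate 3, as were all 8 members. They are the Th2-type receptors with no gene opposite them, so their promoter windows are shown. These are the 250 bases before their RefSeq start sites (GRCm38.p6), read 5′ to 3′ on the strand of the gene. Capitals mark a match to the core letters bound by GATA factors. On either strand, these were AGATAA, the related word AGATAG, the form TGATAA that starts with another base, and its own relative TGATAG. The Ccr4 window is chr9:114496545-114496794, within the longer span that the count files give for the gene, with 18 of its bases in an annotated Ccr4 exon. The Ccr8 window is chr9:120091883-120092132, with 19 bases in an annotated Ccr8 exon.
Ccr4: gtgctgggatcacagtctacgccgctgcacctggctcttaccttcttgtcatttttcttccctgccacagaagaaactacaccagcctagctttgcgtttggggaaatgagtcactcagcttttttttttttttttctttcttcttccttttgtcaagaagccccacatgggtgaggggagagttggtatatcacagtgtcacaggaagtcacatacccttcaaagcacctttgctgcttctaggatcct
Ccr8: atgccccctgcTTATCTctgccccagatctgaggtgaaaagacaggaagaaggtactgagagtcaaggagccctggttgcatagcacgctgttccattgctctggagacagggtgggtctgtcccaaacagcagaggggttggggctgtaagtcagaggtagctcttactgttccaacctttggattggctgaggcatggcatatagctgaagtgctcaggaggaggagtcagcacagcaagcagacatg
The Ccr8 window held 1 such match and the Ccr4 window 0. Of all 32851 promoter windows of this length, 26.5% held at least 1. Neither window held the spaced palindrome preferred by STAT6 (TTC and GAA with 4 bases between them), which was found in 5.85% of all windows. The matches and their absence describe the letters of these windows only. Entries were found for 6 of the 8 members.

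Among the Th2-type receptors, Ccr4 had 70, 30 and 78 counts in replicates 1, 3 and 4. Over its exonic length of 3093 bases this came to 22.6, 9.70 and 25.2 counts per kb. Scaled to the library the level was 13.5, 7.08 and 21.3 TPM, with a mean of 14.0 ± 7.11 TPM (SD, n = 3). Replicate 3 was the low library and replicate 4 the high one.

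Ccr8 had 21, 3 and 16 counts over 1175 bases, or 17.9, 2.55 and 13.6 counts per kb. Its level was 10.7, 1.86 and 11.5 TPM, a mean of 8.02 ± 5.34 TPM (SD, n = 3). Replicates 1 and 4 were close to each other, and replicate 3 stood at the floor of 3 counts. Ccr4 was higher than Ccr8 per length in 3 of 3 libraries, though the ranges of their levels overlapped between libraries.

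Ptgdr2, on chromosome 19 at 10937160 to 10942511 (plus strand), had 145, 97 and 97 counts over 2644 bases, the most of all members. This was 54.8, 36.7 and 36.7 counts per kb, or 32.8, 26.8 and 30.9 TPM (mean 30.2 ± 3.10 TPM, SD, n = 3). Its lowest library lay above the highest of Ccr4, and the spread between libraries was the smallest among the members, with a coefficient of variation of 10.3%. Whether these counts come from RNA of Ptgdr2 or of the gene opposite was not tested.

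Ccdc86, which encodes a nucleolar coiled-coil protein, runs towards Ptgdr2 on the minus strand at 10941481 to 10949266 of chromosome 19. The exons of the 2 genes overlap by 1031 bases at their 3′ ends, which is 39.0% of the exonic length of Ptgdr2 and 17.9% of that of Ccdc86. In GENCODE vM21 all 1031 bases are untranslated region in both genes, and none is coding in either. Ccdc86 itself had 14, 2 and 5 counts, or 2.42, 0.346 and 0.866 counts per kb. Its level was 0.812 ± 0.603 TPM (SD, n = 3).

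**Figure D1:**
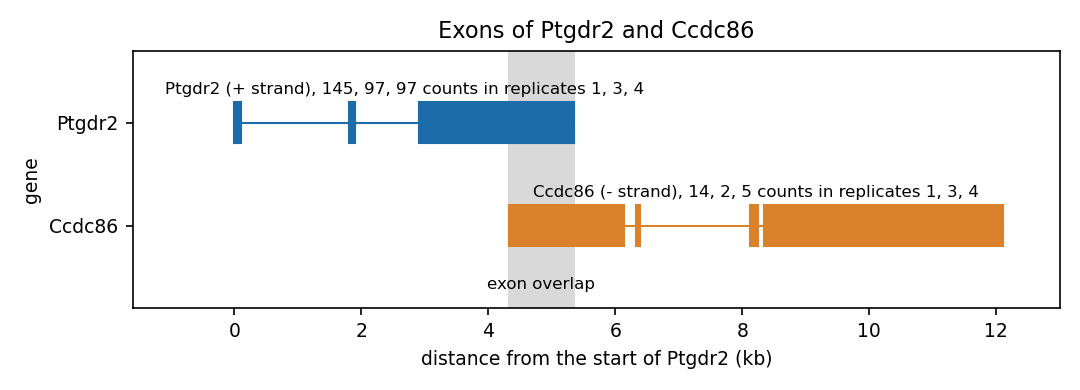
Exons (boxes) of Ptgdr2 above and Ccdc86 below, against the distance in kb from the start of Ptgdr2; the grey band is the overlap of 1031 bases. The counts of replicates 1, 3 and 4 are written over each gene and show 145, 97 and 97 on the plus strand and 14, 2 and 5 on the minus strand.

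Pooled over the 3 libraries, Ptgdr2 had 35.3 times the counts per length of Ccdc86 (95% counting interval 22.7 to 57.7). The log2 ratio was 4.41, 6.25 and 5.22 in replicates 1, 3 and 4, so the direction was the same in 3 of 3, and without replicate 1 the pooled ratio was 60.5. Both values rest on strand setting 1 fitting the kit. Such an imbalance was not rare in this arrangement. Of 507 protein-coding pairs with overlapping 3′ ends and at least 300 counts together, 133 had a larger fold between the genes of the pair, and the median fold was 10.8. Where within the exons of Ptgdr2 the fragments fell cannot be read from counts per gene.

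Cxcr3, the receptor for interferon-induced chemokines, had 3, 1 and 3 counts over 1731 bases (chromosome X, 101731535 to 101734269, minus strand). Ccr6, the receptor for CCL20, had 5, 0 and 2 counts over 2028 bases (chromosome 17, 8236043 to 8257127, plus strand). The mean level was 0.974 ± 0.523 TPM for Cxcr3 and 0.769 ± 0.740 TPM for Ccr6 (SD, n = 3 each). Of these 6 values only the 5 counts of Ccr6 in replicate 1 were above the floor of 3 counts, and the order of the 2 genes differed between libraries. Their pooled ratio per length, Cxcr3 over Ccr6, was 1.17, with a counting interval of 0.351 to 3.91. It was 2.34 without replicate 1 and 0.937 without replicate 4.

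The lymph-node homing receptors were unequal. Ccr7 (chromosome 11, 99144196 to 99155077, minus strand) had 29, 11 and 15 counts over 1978 bases, or 14.7, 5.56 and 7.58 counts per kb. Its level was 8.78, 4.06 and 6.40 TPM (mean 6.41 ± 2.36 TPM, SD, n = 3), highest in replicate 1. S1pr1 (chromosome 3, 115710433 to 115715072, minus strand) had 2, 1 and 5 counts over 3046 bases. Its level was 0.672 ± 0.621 TPM (SD, n = 3), and only replicate 4 was above the floor. Per length Ccr7 was 10.6 times S1pr1 (95% counting interval 5.01 to 25.7), higher in 3 of 3 libraries, with log2 ratios of 4.17, 3.61 and 2.13. The pooled ratio depended on single libraries: it was 6.67 without replicate 1 and 20.5 without replicate 4.

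By mean TPM the order of the members was Ptgdr2, Ccr4, Ccr8, Ccr7, Cxcr3, Ccdc86, Ccr6 and S1pr1. Ptgdr2 was separate from Ccr4, and Ccr7 was separate from Cxcr3. Ccr4 and Ccr8 overlapped, as did Ccr8 and Ccr7, and the 4 lowest members overlapped with their neighbours. The members thus fell in an upper set of 4 genes with 40 to 339 counts over the 3 libraries and a lower set of 4 genes with 7 to 21 counts.

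**Figure D2:**
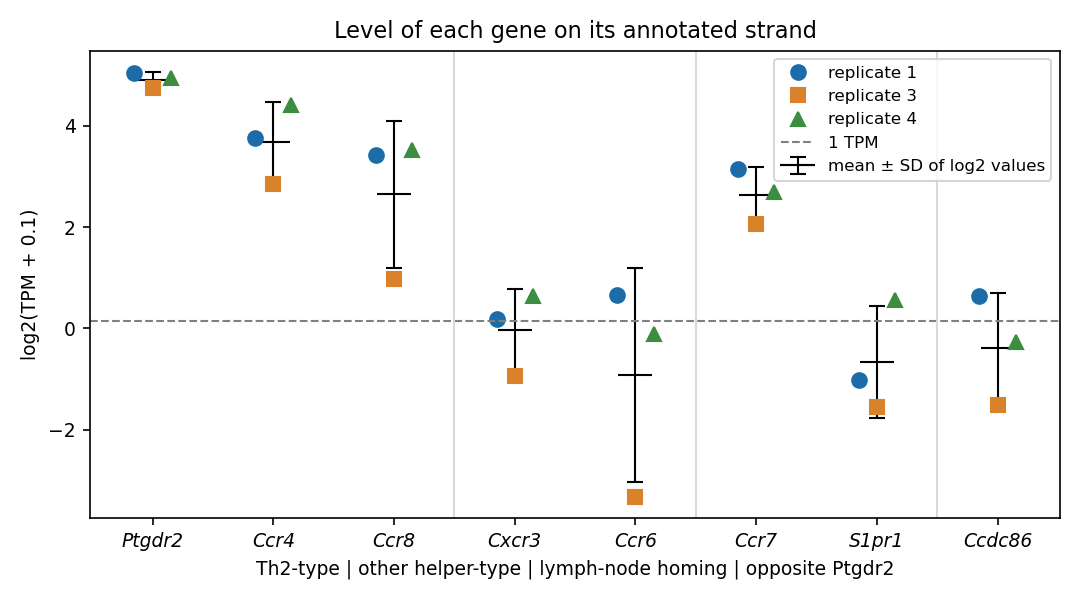
Level of each member on its annotated strand as log2(TPM + 0.1) in replicates 1, 3 and 4 (points), with the mean ± SD of the log2 values (n = 3) and a dashed line at 1 TPM. The Th2-type receptors and Ccr7 lie above the line in all 3 libraries, and every member is lowest in replicate 3.

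Levels were compared with a fixed level of 1 TPM by edgeR's quasi-likelihood test, over 14282 genes with 3 or more counts that included all 8 members. Ptgdr2, Ccr4, Ccr8 and Ccr7 lay above 1 TPM. Their fitted log2 levels over 1 TPM were 4.92, 3.80, 3.02 and 2.70, with Benjamini-Hochberg adjusted p of 5.5e-13, 8.7e-09, 8.07e-05 and 1.29e-05. The same 4 were called by limma on log2(TPM + 0.1). Cxcr3, Ccr6, S1pr1 and Ccdc86 were not called either way (adjusted p = 0.451 to 0.951 in edgeR). In edgeR or limma 0 members were below, also at an unadjusted p under 0.05 in edgeR. Low levels are easily missed here: on simulated data edgeR called 100% of 50 genes set at 8 TPM but 40% of 50 set at 0.125 TPM. For Cxcr3 the floor of 3 counts stood at 1.04 to 1.46 TPM, above the level tested.

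The background of this call is wide. Of all genes tested 48% lay above 1 TPM and 8.56% below, so that 4 of 8 members above is near the share of all genes. Among protein-coding genes without opposite-strand exons 33.4% lay above and 11.8% below, beside 3 and 0 of the 6 members of that kind. Among those with opposite-strand exons 61% lay above and 8.11% below, beside 1 and 0 of the 2 members. Read by rank, Ccr4 stood higher than 97.8% of the 16953 nuclear protein-coding genes without opposite-strand exons, Ccr8 higher than 95.9% and Ccr7 higher than 94.9%. Cxcr3, Ccr6 and S1pr1 stood higher than 75.8%, 72.8% and 70.9%, on 7, 7 and 8 counts over the libraries. Their means of 0.974, 0.769 and 0.672 TPM lay below 1.20 TPM, the median of the 7324 tested genes of this class. Ptgdr2 stood higher than 84.4% of the 4798 genes with opposite-strand exons, below the percentile of Ccr4 in its own class although its TPM was the highest of the members.

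**Figure D3:**
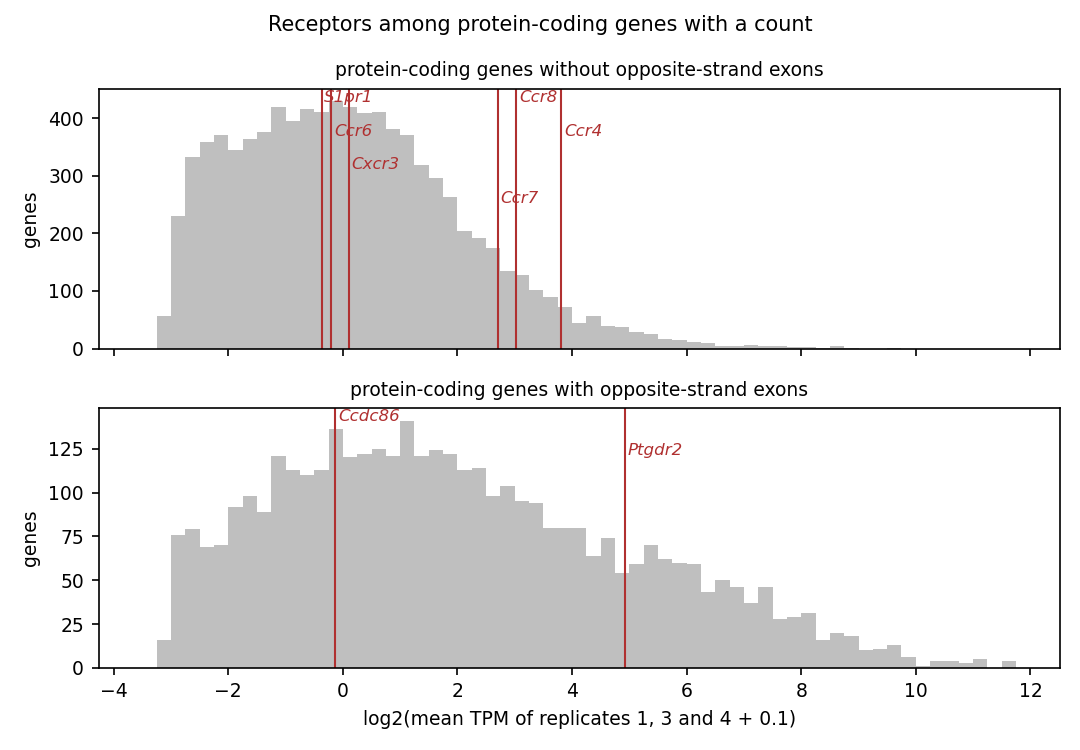
Number of nuclear protein-coding genes with a count (bars) against log2(mean TPM + 0.1), above for genes without and below for genes with opposite-strand exons; red lines mark the members. Ccr4, Ccr8 and Ccr7 lie in the upper tail of the upper panel, while Ptgdr2, at 30.2 TPM, lies within the broad right side of the lower one.

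The rule sets the receptor classes against each other per length. The Th2-type receptors summed to 95.3, 48.9 and 75.5 counts per kb in replicates 1, 3 and 4. The other helper-type receptors summed to 4.20, 0.578 and 2.72, and the lymph-node homing receptors to 15.3, 5.89 and 9.22 counts per kb. The Th2-type sum was higher than both in each library, 29.3 times the other helper-type and 7.22 times the lymph-node homing sum when pooled. By library the first ratio was 22.7, 84.7 and 27.8, and the second 6.22, 8.31 and 8.19. In replicate 3 the other helper-type sum rested on 1 count of Cxcr3. Much of the Th2-type sum was Ptgdr2. Without that gene the sums of Ccr4 and Ccr8 were 40.5, 12.3 and 38.8 counts per kb, which was 12.2 times the other helper-type and 3.01 times the lymph-node homing sum, and still higher in each library. The members were picked by name with earlier results known, so no test of these sums was made. The single genes and pairs that were tested were picked in the same way, and their p-values do not allow for it.

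**Figure D4:**
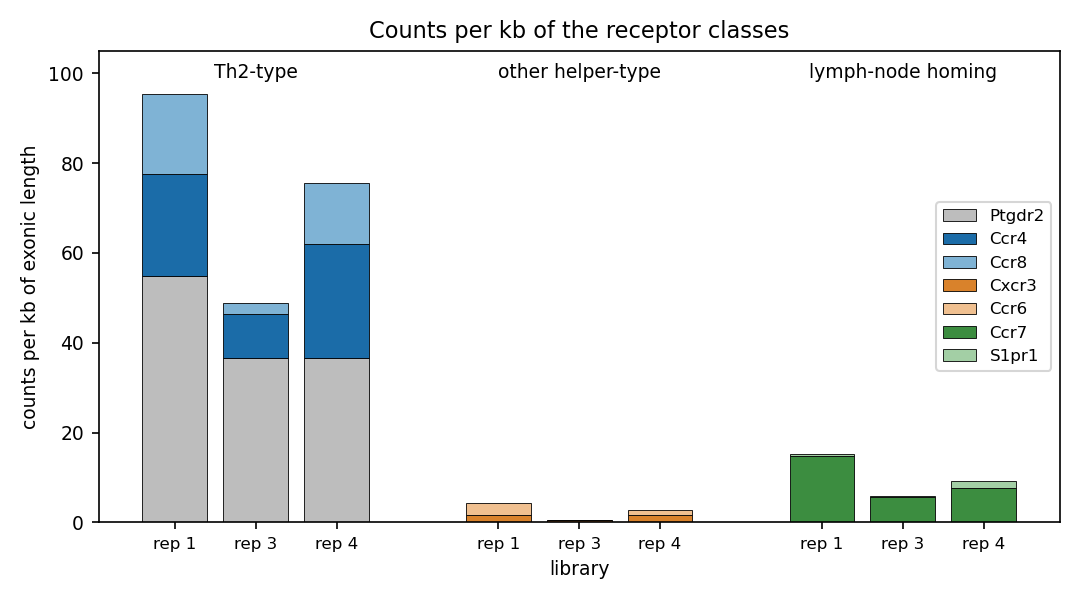
Counts per kb of exonic length of the receptor classes in replicates 1, 3 and 4, stacked by gene from 0. The Th2-type bars reach 48.9 to 95.3, with Ptgdr2 in grey at the base, and the other helper-type bars stay at 4.20 or below.

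Pairs of single receptors showed where the classes parted. Ccr4 was 14.2 times Cxcr3 per length (95% counting interval 6.77 to 35.9), with log2 ratios of 3.58, 3.78 and 3.77 in replicates 1, 3 and 4. It was 16.7 times Ccr6 (7.93 to 42.1), with log2 ratios of 3.11, 6.17 and 4.52, and without replicate 1, which held 5 of the 7 counts of Ccr6, the ratio was 35.4. It was 21.9 times S1pr1 (10.9 to 51.5), with log2 ratios of 4.79, 4.40 and 3.85. Against Ccr7 the ratio was smaller, at 2.07 (1.52 to 2.85), with log2 ratios of 0.62, 0.79 and 1.72. Within the Th2-type class Ccr4 was 1.69 times Ccr8 (1.19 to 2.45), with log2 ratios of 0.34, 1.87 and 0.88. Ptgdr2 was 2.23 times Ccr4 (1.85 to 2.69), with log2 ratios of 1.27, 1.90 and 0.54. In 8 of the 9 pairs the first gene was higher in 3 of 3 libraries. The exact two-sided sign-flip permutation p was 0.25 for these 8, the smallest that 3 libraries allow, and 0.5 for Cxcr3 over Ccr6. Benjamini-Hochberg adjustment over the 9 pairs gave 0.281 and 0.5, so none could pass at 0.05.

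Between libraries, replicate 3 was the lowest for all 8 members in TPM. This was common: 80.3% of the 2824 protein-coding genes without opposite-strand exons and a mean count of 10 or more were lowest there, and 50.8% of the 2424 with such exons. With edgeR, TMM scaling and 6922 genes at a mean count of 10 or more, 4 members could be tested. In replicate 3 against the others Ccr4 fell by 1.11 ± 0.37 on the log2 scale (SE, adjusted p = 0.0271) and Ccr8 fell by 2.36 ± 0.81 (adjusted p = 0.0307). Ccr7 stood at −0.75 ± 0.57 (adjusted p = 0.381) and Ptgdr2 at −0.09 ± 0.29 (adjusted p = 0.866). Thus 2 of 4 members were called lower and 0 higher. Of all genes tested 12.4% were called lower in replicate 3 and 2.79% higher. The shares were 22% lower and 0.817% higher among genes without opposite-strand exons, the class of Ccr4, Ccr8 and Ccr7, and 4.82% lower and 4.35% higher among genes with such exons, the class of Ptgdr2.

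The calls for Ccr4 and Ccr8 did not hold under every setting. In replicate 3, genes without opposite-strand exons took 5.78% of all counts, against 9.26% and 8.67% in replicates 1 and 4. When libraries were scaled by these genes alone, the median log2 difference of all genes in replicate 3 moved to 0.72, against −0.11 with TMM. Ccr4 was then at −0.28, Ccr8 at −1.54 and Ccr7 at 0.08, all without a call, beside a median of 0.00934 for tested genes without opposite-strand exons. Ptgdr2 moved to 0.75 and, unlike these 3, was called higher in replicate 3 under this scaling. Its value lay below the median of 0.958 for tested genes with such exons. DESeq2 called none of the 4 in replicate 3, also at an unadjusted p under 0.05, though its log2 differences of −1.03 ± 0.63 for Ccr4 and −2.30 ± 1.403 for Ccr8 (SE) were about as large as those of edgeR. With TMM kept, Ccr4 was at −1.03 (adjusted p = 0.0845) when genes with a mean count of 1 or more entered and at −1.09 (adjusted p = 0.0646) with all 4 libraries. As CPM (counts scaled to the total) of genes without opposite-strand exons, Ccr4 stood at 316, 269 and 525, Ccr8 at 94.9, 26.9 and 108, and Ccr7 at 131, 98.6 and 101 in replicates 1, 3 and 4.

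**Figure D5:**
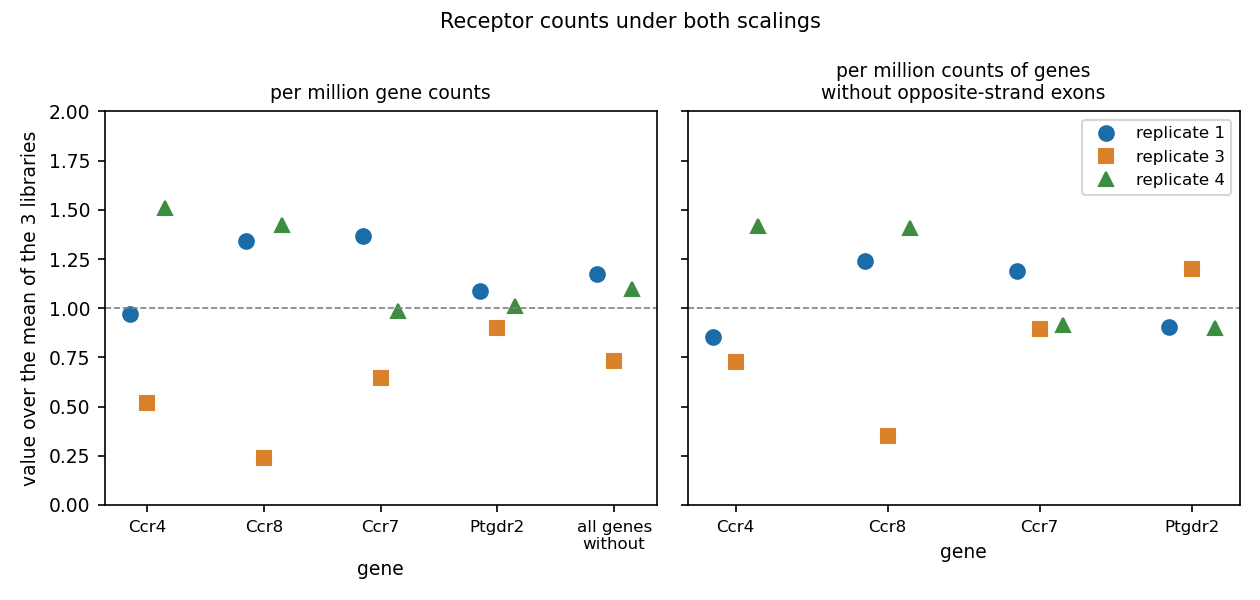
Count of each tested receptor over the mean of its 3 libraries, as CPM of all genes (left, with the total of all genes without opposite-strand exons beside them) and as CPM of genes without opposite-strand exons (right). On the left replicate 3 is lowest for all; on the right it is the highest library for Ptgdr2 and still the lowest for Ccr4, Ccr8 and Ccr7.

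In the tests of replicates 1 and 4 none of the 4 tested members was called by edgeR or DESeq2, also at an unadjusted p under 0.05. Ccr4 stood at 0.99 ± 0.64 in replicate 4 and at −0.12 ± 0.59 in replicate 1 (log2 difference ± SE, edgeR). Replicate 3 is among the other libraries in both tests, and the biological coefficient of variation was 0.310 for replicate 1 and 0.337 for replicate 4, against 0.141 in the test of replicate 3, so these tests could detect less. Over all genes edgeR called 0.0289% higher and 0% lower in replicate 1, and 0.0144% higher and 0.0289% lower in replicate 4. The coefficient of variation over the 3 libraries was 50.9% for Ccr4, 66.7% for Ccr8 and 36.8% for Ccr7, beside a median of 43.9% for protein-coding genes without opposite-strand exons. That of Ptgdr2, 10.3%, stood beside a median of 17.4% for those with such exons.

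The genes nearest to each member in level and pattern were sought over 3 libraries within its own strand class, by Euclidean distance of log2(TPM + 0.1). For Ccr4 these were Ptp4a2 (distance 0.347), a phosphatase gene, and Cct4 (0.397), a chaperonin subunit. For Ccr8 they were Atp5h (0.179) and Slc25a4 (0.269), both coding for mitochondrial proteins, and for Ccr7 the octamer-binding factor Pou2f2 (0.101) and the splicing factor Sf3a3 (0.135). For Ptgdr2 they were Mrpl19 (0.0719) and Gon4l (0.0752), both with opposite-strand exons. With 3 points this is a description of closeness only.

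Other chemokine receptors were mostly near 0 on their strands. Of 17, 1 lay above 1 TPM, 1 below, 6 were undecided and 9 had under 3 counts. The median of all 17 was 0.141 TPM, beside 0.172 TPM over all 21751 nuclear protein-coding genes counted. The 8 that were tested had a median of 1.18 TPM, beside 1.56 TPM over the 10998 protein-coding genes tested. Above 1 TPM lay 12.5% of these 8, beside 48% of all genes tested. Without opposite-strand exons, 0 of 13 lay above, tested or not, beside 33.4% of tested protein-coding genes of that kind. The gene above was Ackr4, a scavenger of CCL19 and CCL21, at 51.8 ± 9.69 TPM (SD, n = 3), whose exons lie opposite Acad11. Ccr9, the gut-homing receptor, was below at 0.141 TPM. Cxcr4, a receptor of most lymphocytes, had 1, 0 and 2 counts, and Cxcr5, that of follicular helper cells, had 7 in each of the 3 libraries, with exons opposite Bcl9l.

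Receptors of lipids, complement and oxysterols held more. Of 17, 4 lay above 1 TPM, 1 was below, 4 were undecided and 8 had under 3 counts, with a list median of 0.349 TPM. Of the 9 tested, 44.4% lay above, near the 48% of all genes tested. Without opposite-strand exons, 3 of 14 lay above, tested or not, beside 33.4% of tested protein-coding genes of that kind. Ptger4 and Ptger2, both receptors of prostaglandin E2, stood at 35.8 ± 2.67 and 13.8 ± 2.14 TPM. Gpr183, the receptor of oxysterols that guides cells to the edge of follicles, stood at 18.5 ± 2.85 TPM, and S1pr4 at 13.2 ± 0.498 TPM (SD, n = 3 each). The exons of Ptger4 lie opposite Ttc33 and Gm15937, and Gpr183 lies within the span of Ubac2 and Ptger2 within that of Gm17173 on the other strand, and whether the counts come from the receptors' own RNA was not tested. Ptgdr, the other prostaglandin D2 receptor, had no count, and S1pr2 was below at 0.116 TPM.

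Ligands and the enzymes that make or break them had no count for 8 of 16. Of these 16, 2 lay above 1 TPM, 0 below, 4 were undecided and 10 had under 3 counts. Sphk2, a sphingosine kinase, stood at 15.7 ± 3.96 TPM opposite Dbp and Rpl18, and Spns2, a sphingosine 1-phosphate exporter, at 2.04 ± 0.424 TPM opposite Mybbp1a (SD, n = 3 each). Limma called only Sphk2. Of the 6 tested, 33.3% lay above by edgeR, beside 48% of all genes tested. Without opposite-strand exons, 0 of 11 lay above, tested or not, beside 33.4% of tested protein-coding genes of that kind. Ccl17 and Ccl22, the ligands of CCR4, had 1 count each, and Ccl1, a ligand of CCR8, had none. The list median was 0.0605 TPM.

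Adhesion molecules of homing lay above 1 TPM in 7 of 12 cases and below in 0, with a list median of 3.60 TPM. Of the 11 tested, 63.6% lay above, beside 48% of all genes tested, and limma called 6. Without opposite-strand exons, 6 of 11 lay above, tested or not, beside 33.4% of tested protein-coding genes of that kind. The 4 highest were the integrin chains Itgb1 at 25.5 ± 5.75, Itgb2 at 7.56 ± 2.89 and Itga4 at 6.87 ± 1.76 TPM, and Selplg, the P-selectin ligand, at 10.9 ± 3.02 TPM (SD, n = 3 each). Itga4 has exons opposite Cerkl.

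Signalling and desensitisation genes lay above 1 TPM in 12 of 20 cases and below in 1, with a list median of 2.79 TPM. Of the 19 tested, 63.2% lay above, beside 48% of all genes tested, and limma called 10. Without opposite-strand exons, 9 of 15 lay above, tested or not, beside 33.4% of tested protein-coding genes of that kind. Coro1a, an actin regulator needed for T cell exit, stood at 17.1 ± 8.74 TPM opposite Bola2. Gnai2, the inhibitory G protein of chemokine receptors, stood at 12.8 ± 5.11 TPM, Rac2, a GTPase of migration, at 10.98 ± 5.80 TPM, and Grk2, a kinase that desensitises these receptors, at 10.7 ± 6.12 TPM (SD, n = 3 each). Gnaq was the gene below, at 0.259 TPM. Klf2, which drives S1pr1 in naive T cells, had 1 count.

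Markers of the labelled cells had counts. All 8 T cell markers and all 5 Th2 markers lay above 1 TPM, beside 48% of all genes tested. Among these markers Cd3e, Gata3, Il5 and Il4ra have exons opposite Gm48719, Gm13256, Gm12214 and Gm44876. The 7 T cell and 2 Th2 markers without such exons stood beside 33.4% above among tested protein-coding genes of that kind. The summed level of the T cell markers without opposite-strand exons was 118, 41.9 and 132 TPM in replicates 1, 3 and 4. It was lowest in replicate 3, as Ccr4 and Ccr8 were. So were 80.3% of the protein-coding genes without opposite-strand exons that were compared between libraries above. Of the Th2 markers of this class, Il13 was also lowest there, at 96.4, 18.8 and 81.9 TPM in replicates 1, 3 and 4. Il4 was instead highest there, at 31.7, 47.6 and 40.6 TPM. The part of the T cell marker level in the replicate 3 values was not tested. In bulk RNA fewer cells of a type and less RNA per cell cannot be told apart. Of 7 cytotoxic and natural killer markers and of 8 mast cell, basophil and eosinophil markers 0 lay above 1 TPM in edgeR or limma, also at an unadjusted p under 0.05. Their sums were 0.799 to 2.98 TPM and 0 to 1.26 TPM, with Prf1, Gzma, Kit, Fcer1a and Mcpt8 at 0. The same held for 5 markers of group 2 innate lymphoid and gamma delta T cells, which summed to 0.626 to 1.31 TPM, with 2 of the 5 below 1 TPM. B cell markers had Cd79a at 5.80 ± 3.90 TPM (SD, n = 3) and no count of Ms4a1, Cd79b or Pax5. Among 7 myeloid and dendritic markers Csf1r, opposite Hmgxb3, was the only one above, at 134, 136 and 152 TPM in replicates 1, 3 and 4, higher than each of the 8 members, and the 6 others summed to 0 to 0.641 TPM.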

How the data were processed

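RNA of 4 Th2 libraries had been sequenced. The authors deposited raw fragment counts per gene, made per the file headers with featureCounts 1.4.6-p4 (exons of GENCODE vM13, both mates mapped, strand setting 1) from STAR alignments to mm10. The version of STAR was not given in the sources used here. Neither was the strand that the kit keeps, so whether strand setting 1 fits the libraries is not known. The labels call the assay total RNA, while the library protocol's name speaks of poly(A) RNA. The files also held the exonic length in bases.

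Symbols came from GENCODE vM21 by gene identifier, and 224 of 50600 identifiers had none. Exon overlap on the other strand was found with bedtools 2.31.1 (1 base or more). TPM was computed from counts and exonic lengths. Main results use replicates 1, 3 and 4. Depth was 1713199 to 2388255 counts, and the floor of 3 counts was 1.26 to 1.75 CPM. Intervals are 95% (exact binomial for ratios) and, like floors, cover counting error only, since no molecular identifiers mark independent molecules.

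Tests used edgeR 4.0.16 in R 4.3.3 (quasi-likelihood, Benjamini-Hochberg at 0.05): each gene's count against that expected at 1 TPM, and each library against the other 2 (TMM, mean count of 10 or more). The library tests do not compare conditions, and they assume that the lone library varies like the others. The SE is the log2 change over the root of F. Limma 3.58.1 and DESeq2 1.42.0 were alternatives. Both tests were tested on simulated data.

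The members, lists, pairs and alternatives were chosen with earlier results of these data known. Named genes are the members, up to 4 list genes above 1 TPM by mean TPM, and the 2 nearest genes of each member with 30 or more counts. Ccr9, S1pr2, Gnaq, Cxcr4, Cxcr5, Ptgdr, Klf2, the ligands of CCR4 and CCR8 and the markers were named besides, after their values were seen. Single values of a few list genes are not reported here. Promoter sequences are from RefSeq (GRCm38.p6).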

Additional observations from a re-analysis of the deposited data

How the results depend on the processing

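Ptgdr2, Ccr4, Ccr8 and Ccr7 stayed above 1 TPM, and the other members uncalled, with limma, with all 4 libraries, at 0.5 or 2 TPM, with RPKM, without a filter and without each replicate in turn (Ccr6 then had too few counts without replicate 1). Over all genes the number below 1 TPM, 1223, moved to 1959 with all 4 libraries, 248 at 0.5 TPM, 3516 at 2 TPM, 2355 with RPKM and 2835 without a filter. It was 158 without replicate 1, 1140 without replicate 3 and 266 without replicate 4; the cause was not tested. In replicate 3 edgeR called 193 genes higher and 858 lower. DESeq2 gave 20 and 36, DESeq2 size factors in edgeR gave 379 lower, all 4 libraries gave 50 higher, and a mean count of 1 or more gave 306 higher. Scaling by genes without opposite-strand exons gave 2809 higher and 118 lower, and turned Ptgdr2 to 0.75. Ccr4 was no longer called in these 5 settings (adjusted p = 0.0646 to 0.607). Its log2 difference, −1.11, was −1.03 with DESeq2, −1.01 with DESeq2 size factors, −1.09 with all 4 libraries and −1.03 at a minimum mean count of 1, and it was smaller, at −0.28, when scaled by genes without opposite-strand exons. Ccr8 stayed called with all 4 libraries and at a minimum mean count of 1 (adjusted p = 0.009996 and 0.0426), and was not called with DESeq2 size factors (adjusted p = 0.0641) or scaling by genes without opposite-strand exons (0.132). DESeq2 gave it no adjusted p. In replicate 1 the 2 genes higher became 0 with a mean count of 1 or more. In replicate 4 the 1 gene higher and 2 lower became 0 and 0 with DESeq2 and with scaling by genes without opposite-strand exons. The 1 higher also became 0 with DESeq2 size factors, all 4 libraries and a mean count of 1 or more. Leaving a library out of these tests left 1 against 1, which could not be fitted. The Th2-type sum over the lymph-node homing sum was 3.01 without Ptgdr2, which also leaves out every member with opposite-strand exons. No pair's mean log2 ratio turned direction under another pseudocount, with all 4 libraries or without each replicate. No paired analysis was possible because the labels give a single group. Depth limits Cxcr3, Ccr6 and S1pr1, with 7 or 8 counts each over 3 libraries.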
